A study of Saccharomyces cerevisiae with 2 samples.

Results

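Fused hotspots are stretches of accessible chromatin that were called as 1 interval in the Hsp90 mutant G170D where wild-type (WT) cells had 2 or more separate intervals. They were chosen by that overlap alone, with 1 shared base enough to count a WT hotspot as joined. Of the 5988 hotspots in the G170D list, 314 met the rule (5.24%, 95% Wilson interval 4.71 to 5.84), and they joined 693 of the 7050 WT hotspots. A further 5089 G170D hotspots overlapped 1 WT hotspot and 585 overlapped none.

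The G170D group was a W303 strain (a common laboratory background of budding yeast) with a temperature-sensitive Hsp90 carrying the allele G170D, and the other group was wild-type W303. Both grew in the rich medium YPD at 30 °C between optical densities of 0.25 and 0.65, and both were filtered and moved to medium at 37 °C, a temperature the mutant does not tolerate, for 15 min. The labels do not say which of the paired Hsp90 genes, HSP82 or HSC82, carries the allele, nor whether the other is present. Each strain gave 1 library, so all differences are between 2 libraries, with no replicate check, and a difference already present at 30 °C cannot be told apart from one that followed the shift.

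DNase I cuts chromatin where DNA is not wrapped in a nucleosome or otherwise shielded, and runs of frequent cutting are called as hotspots. In budding yeast the widest nucleosome-poor stretches lie before genes, while coding bodies are packed with regularly spaced nucleosomes that are loosened during strong transcription. Hsp90 is a chaperone that matures kinases, receptors and transcription regulators, and with its cochaperones it also acts on assemblies that remodel chromatin. A fused hotspot therefore marks a place where a stretch outside the called accessible DNA of WT, often a few nucleosomes long or less, fell inside it in the mutant.

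The way the lists were made sets what a fusion can mean. Neighbouring hotspots were never closer than 151 bp in the G170D list, and the WT list had the same shortest distance of 151 bp. Every gap that a fusion closed was thus at least 151 bp long in WT, and a gap shortened by a few bases to 150 bp or less has no counterpart in either list. Bases inside a fused hotspot need not each be more accessible than in WT, and the read depth behind the lists is unknown.

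Fused hotspots were wide, and much of their length was new. Together they spanned 564 kb in G170D, 17.0% of all bases called in that strain, while the WT hotspots they joined summed to 430 kb. Of the 564 kb, 359 kb was also covered in WT and 205 kb (36.4%) was newly covered. That 205 kb made up 34.1% of the 601 kb covered in G170D and not in WT. Bridged gaps, the stretches between joined WT hotspots, accounted for 140 kb of the new bases (68.5%), and extensions beyond the outermost WT hotspots for 64.7 kb. Against this gain, 71.0 kb of the joined WT hotspots lay outside the fused hotspot.

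The median fused hotspot was 1525 bp wide (quartiles 1089 and 2379 bp, range 365 to 7246 bp), against 330 bp for G170D hotspots that overlapped 1 WT hotspot (quartiles 204 and 687 bp). Width is tied to the rule, because a wide interval meets more neighbours. The share of G170D hotspots that were fused was 0.108% up to 500 bp, 4.65% from 501 to 1000 bp, 19.3% from 1001 to 2000 bp, 46.2% from 2001 to 3000 bp and 76% above 3000 bp (38 of 50). Scores, which rank hotspots within a list, were high as well, at a median percentile of 90.6 for fused hotspots and 50.9 for those overlapping 1 WT hotspot. Scores were not compared at matched width, so the higher scores cannot be told apart from the greater width.

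**Figure D1:**
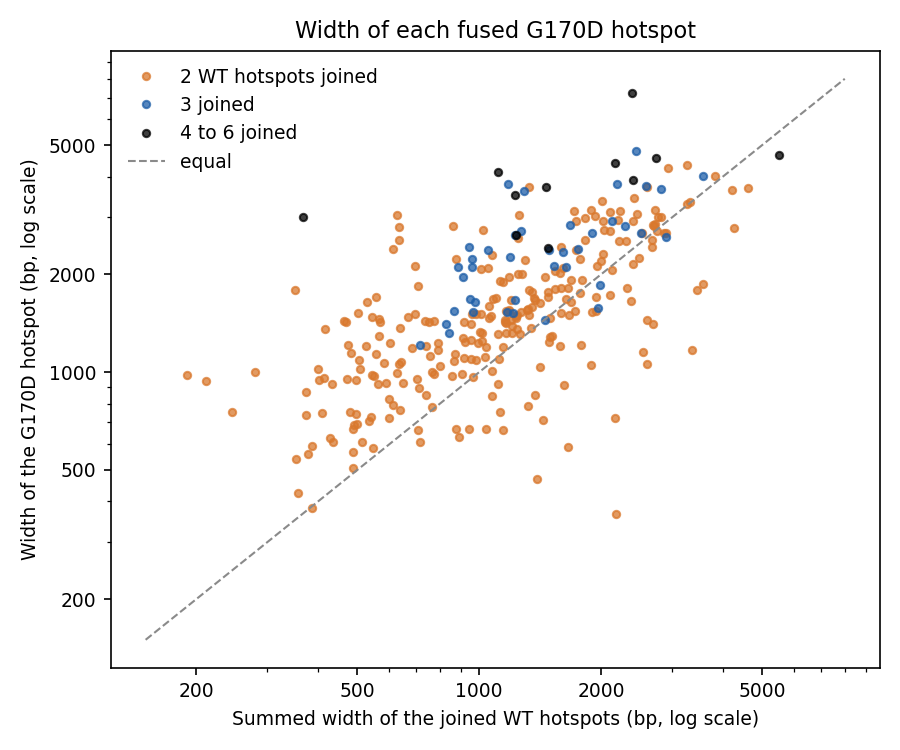
Width of each of the 314 fused G170D hotspots (vertical, bp, log scale) against the summed width of the WT hotspots it joined (horizontal, bp, log scale), 1 point per hotspot, coloured by the number joined, with a dashed line of equal width. 250 points lie above the line and 64 below it.

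Most fusions were simple pairs. Exactly 2 WT hotspots were joined in 263 cases (83.8%), 3 in 40, 4 in 8, 5 in 2 and 6 in 1. With the partners of each pair sorted by their width in WT, the wider had a median of 823 bp and the narrower 277 bp. Medians of the WT score percentile were 82.1 for the higher-scoring partner and 43.2 for the lower-scoring one. Sorting alone sets the partners apart, and WT neighbours that were not joined were not measured in this way. In 67 of the 314 fusions at least 1 joined WT hotspot was under 150 bp wide, and the share of all WT hotspots that narrow was not counted. The lower quartile of width was 241 bp for joined WT hotspots and 196 bp for all WT hotspots. The fused interval exceeded the summed width of its WT parts in 250 cases (79.6%) and fell short of it in 64.

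Fused hotspots reached past their WT parts about as often as they stopped short of them. Of the 628 outer edges, 316 reached beyond the outermost WT edge (50.3%), 308 stopped short of it and 4 coincided. Both edges lay beyond WT in 88 fused hotspots, 1 edge in 140 and neither in 86. In 52 fused hotspots (16.6%) a joined WT hotspot was also cut by a second G170D hotspot. Of all WT hotspots, 542 of 7050 (7.69%) overlapped more than 1 G170D hotspot. That share is per WT hotspot, and the 314 fused hotspots joined 693 WT hotspots. Whether such cutting was more frequent at fusions than elsewhere was not tested.

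The closed gaps were short. Their median length was 270.5 bp (order-statistic interval 263 to 280, n = 380), with a range of 151 to 2161 bp, against a median of 767 bp for the 6654 WT gaps that were not bridged. Of the 380 bridged gaps, 245 (64.5%) were 300 bp or shorter. The 73 gaps over 500 bp (19.2%) were few, but they held 42.8% of the bridged bases. Among all 7034 gaps between neighbouring WT hotspots 5.4% were bridged, and the share fell with length, being 20.6% for 151 to 200 bp (77 of 373), 13.8% for 201 to 300 bp, 5.48% for 301 to 500 bp, 3.48% for 501 to 1000 bp and 0.598% above 1000 bp (16 of 2674).

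The opposite event, a WT hotspot broken into several in G170D, was the more common one. It befell 542 of 7050 WT hotspots (7.69%, 7.09 to 8.33), and of the 5972 gaps between G170D hotspots 609 (10.2%) lay inside a WT hotspot. Gaps of 151 to 200 bp in G170D were covered in WT in 51.4% of cases, and those of 201 to 300 bp in 31.4%. Only for the longest gaps was the order turned: above 1000 bp, 16 of 2674 WT gaps were bridged in G170D (0.598%, 0.369 to 0.970), whereas 2 of 2805 G170D gaps were covered in WT (0.0713%, 0.0196 to 0.260). Of these 16 gaps, those of 1101, 1185, 1211, 1294, 1332 and 2161 bp lay on chromosome III, which had 166 of the 7034 WT gaps. The shares without that chromosome were not counted by gap length. Gaps over 500 bp formed 19.2% of those bridged in G170D (15.6 to 23.5) and 11% of those in broken WT hotspots (8.76 to 13.7). The WT list is the longer one, and the share of each direction moves with how much was called in each library.

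**Figure D2:**
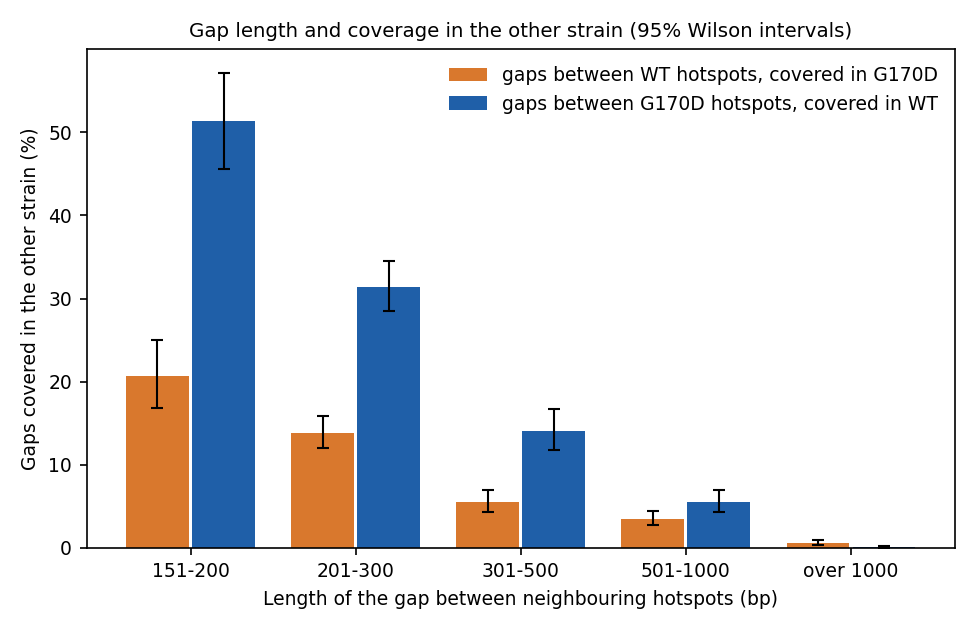
Share of gaps between neighbouring hotspots (vertical, %) that were covered in the other strain, by gap length (horizontal, bp), with 95% Wilson intervals for counting error. Orange bars are WT gaps bridged in G170D and blue bars are G170D gaps covered in WT, and the orange bar is higher only above 1000 bp.

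Coding bodies held most of the newly covered DNA. Of the bridged bases 73.2% (103 kb) lay in a coding body, 17.9% (25.2 kb) in the noncoding part of the 500 bp upstream of a coding start and 8.87% (12.5 kb) in other noncoding DNA. The outer flanks were still more coding, at 80.8%, 13.4% and 5.81%. Bases of the same fused hotspots that WT already covered were divided as 48.2% coding, 38.3% upstream and 13.5% other. What was joined was thus richer in promoter DNA, and what was added was mostly gene body. This contrast was not particular to fusions. Bases newly covered by other G170D hotspots were 72.3% coding, 17.6% upstream and 10.1% other, and all WT hotspots were 52.7% coding and 31.6% upstream. The 16 chromosomes as a whole are 72.9% coding, 16% upstream and 11.1% other by the same rule, close to the makeup of the bridged gaps.

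Set against the gaps that could have been bridged, however, the bridged ones lay upstream more often. WT gaps that were not bridged were 84.0% coding and 8.34% upstream, and still 80.1% and 10.5% when weighted to the length classes of the bridged gaps, against the 73.2% and 17.9% of bridged gaps. The shortest bridged gaps, of 151 to 200 bp, were 57.8% coding and 22.6% upstream, and open gaps of that length 75.6% and 14.0%. Other noncoding bases made up 19.6% and 10.4% of these. Over all lengths they made up 8.87% of bridged bases and, with the same weighting, 9.37% of open ones. Above 500 bp the difference was small for coding bases, with 83.6% of bridged and 83.8% of open gap bases at 501 to 1000 bp, while 13.1% and 8.65% were upstream.

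**Figure D3:**
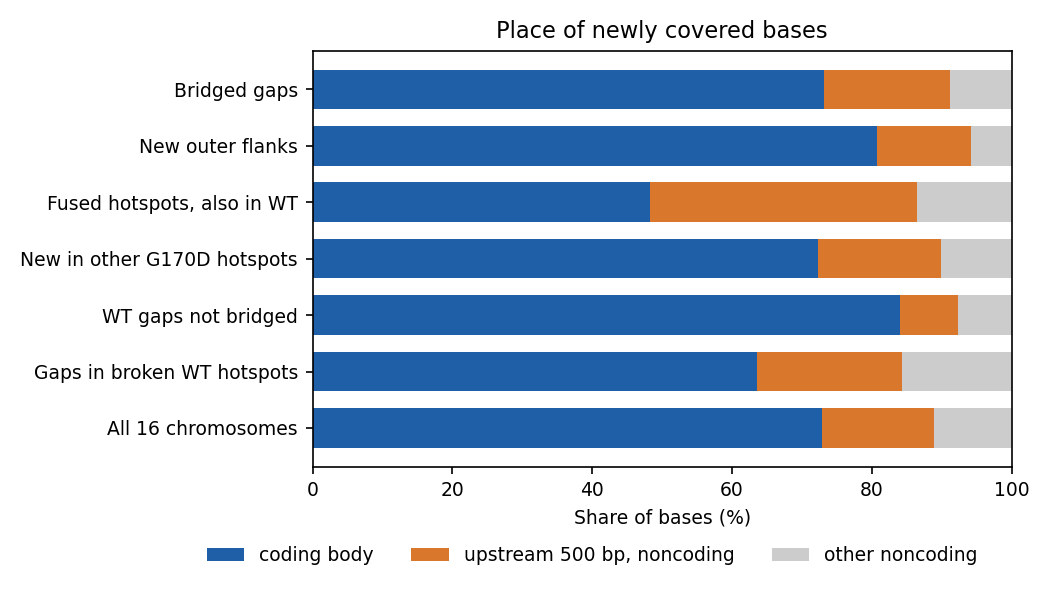
Share of bases (horizontal, %) in coding bodies, in noncoding DNA up to 500 bp upstream of a coding start and in other noncoding DNA, for 7 sets of bases. Bridged gaps are 73.2% coding, between the 48.2% of fused hotspot bases also covered in WT and the 84.0% of WT gaps that were not bridged.

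Counted gap by gap, 170 of the 380 bridged gaps (44.7%) lay inside 1 coding body, 67 crossed a coding start, 46 crossed only a coding end and 10 held a whole coding body. Another 41 were noncoding and entirely upstream, and 46 were noncoding with part or none of their length upstream. Among WT gaps of up to 500 bp, 28.0% of the noncoding gaps lying entirely upstream were bridged (40 of 143, 21.3 to 35.8), against 8.76% of those inside 1 coding body (138 of 1575, 7.46 to 10.3). Between them stood noncoding gaps with part or none of their length upstream, at 17.0% (45 of 264, 13.0 to 22.0). Gaps across a coding start were at 14.1% (48 of 340). The order was the same in the opposite direction. There WT covered 50% of the upstream noncoding gaps of G170D (66 of 132, 41.6 to 58.4). It covered 34.2% of noncoding gaps with part or none upstream (94 of 275, 28.8 to 40.0). Gaps inside a coding body were covered in 23.3% of cases (237 of 1018, 20.8 to 26.0). Gaps of up to 500 bp in noncoding DNA thus differed between the libraries more often both ways, those entirely upstream most of all. The classes were not matched for length within that range, and shorter gaps were bridged more often. Over all lengths, bridged gaps had a median of 225 bp where entirely upstream and 276.5 bp inside 1 coding body. The part of gap length in these shares was not tested.

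The bridged noncoding bases lay between divergent genes more often than those of unbridged gaps. Divergent intergenic regions, which lie between the starts of 2 genes, held 42.7% of them, against 26.3% of the noncoding bases in unbridged gaps and 32.6% of all noncoding bases. Convergent regions, which lie between the ends of 2 genes, held 10.3%, against 22.0% in open gaps. Tandem regions held 47.0% and 51.7%. Within coding bodies the 170 bridged gaps had their middle in the first of 3 equal parts of the body in 34.7% of cases, in the middle part in 45.9% and in the last part in 19.4%, against 25.7%, 50.3% and 24% of open gaps. Counted per gap, the surrounding body had a median of 1228.5 bp for bridged gaps and 2025 bp for open gaps, where a long gene with many gaps counts once for each, and the median of all coding genes was 1200 bp. Bridged gaps began a median of 236 bp after the start, against 422.5 bp for open gaps.

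The WT neighbours that were joined most often both lay in promoters. Where both midpoints were upstream of a coding start, 61 of 659 neighbouring pairs were joined (9.26%). Pairs with both midpoints in other noncoding DNA followed, at 16 of 232 (6.90%), and upstream with other noncoding at 42 of 626 (6.71%). An upstream hotspot and one in a coding body were joined in 144 of 2583 cases (5.57%), and 2 hotspots in coding bodies in 86 of 2122 (4.05%). Coding with other noncoding stood at 31 of 812 (3.82%). These shares were not matched for gap length. Pairs of an upstream and a coding hotspot were the most numerous kind, making 37.9% of the joined neighbours and 36.7% of all neighbours.

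Fusions over short and long gaps differed in where their bridged bases lay. In 199 fused hotspots the longest gap was 300 bp or less, and their bridged bases were 59.1% coding and 23.2% upstream. In the 66 with a gap over 500 bp, 82.6% were coding and 13.9% upstream. All bridged bases were coding in 123 fused hotspots and none were in 72.

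The fusion with the most new DNA lay on chromosome III (207988 to 215233), where 6 WT hotspots of 477, 143, 587, 982, 37 and 162 bp became a single stretch of 7246 bp. Its 5 bridged gaps of 555, 1211, 624, 733 and 1294 bp came to 4417 bp, of which 3816 bp was coding and 601 bp upstream. In WT the 3 narrowest of the 6, of 143, 37 and 162 bp, had scores at percentiles 1.21, 3.30 and 8.07 of the list. The stretch ran through RRT12, a spore wall protease gene, IMG1, which encodes a protein of the mitochondrial ribosome, BUD23, an 18S rRNA methyltransferase gene, and ARE1, a sterol acyltransferase gene. Each of these coding bodies was covered over 100% in G170D, against 18.7% (RRT12), 48.4% (IMG1), 24.6% (BUD23) and 26.1% (ARE1) in WT. Upstream of RRT12 the whole 500 bp was covered in G170D and 0 bp in WT.

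On chromosome X (637540 to 641953) 5 WT hotspots became 4414 bp, with 2363 bp bridged. RSM7, a mitochondrial ribosomal protein gene, was covered over 100% of its body in G170D and 36.0% in WT, and TDA4 over 100% and 1.43%. The longest single gap closed in the data set was 2161 bp, on chromosome III (103911 to 107636, 3726 bp). It took in the entire body of ILV6, the regulatory subunit gene of acetolactate synthase, which was covered over 100% in G170D and 0% in WT. The same gap held 1057 of 1158 bp of STP22, an ESCRT-I subunit gene for endosomal sorting. Beside them the body of SGF29, a SAGA subunit gene, was covered over 69.1% in G170D and 12.1% in WT.

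HAC1, which encodes the transcription factor of the unfolded protein response, and AGX1, an aminotransferase gene of glycine synthesis, were joined on chromosome VI (73965 to 77667). The HAC1 body (75179 to 76147) was covered over 100% in G170D and 18.1% in WT. A gap of 1614 bp (75471 to 77084) began inside HAC1 and ran into the body of AGX1 (76831 to 77988). It held all 500 bp upstream of AGX1, none of which was covered in WT. On chromosome XV (675673 to 679381) a gap of 1957 bp was closed, 1461 bp of it in LAS17, the yeast WASP gene of actin assembly. The LAS17 body was covered over 100% in G170D and 23.2% in WT. Of the WT parts of that fused hotspot 850 bp lay outside it, and RPS30B, a ribosomal protein gene at its other end, was covered over 100% and 75.8%.

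The fusion with the highest share of new bases was on chromosome XIII (817802 to 820804), where 2635 of 3003 bp (87.7%) were new. There WT had 4 hotspots of 80, 110, 140 and 38 bp, at percentiles 20.3, 2.57, 2.74 and 1.35 of its scores. DSK2, a ubiquitin shuttle gene, was covered over 100% of its body in G170D and 22.3% in WT. FCP1, the phosphatase gene of the RNA polymerase II tail, had 500 bp of its upstream window covered in G170D and 0 bp in WT, and BUL1, a ubiquitin ligase adaptor gene, had 500 and 110 bp.

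**Figure D4:**
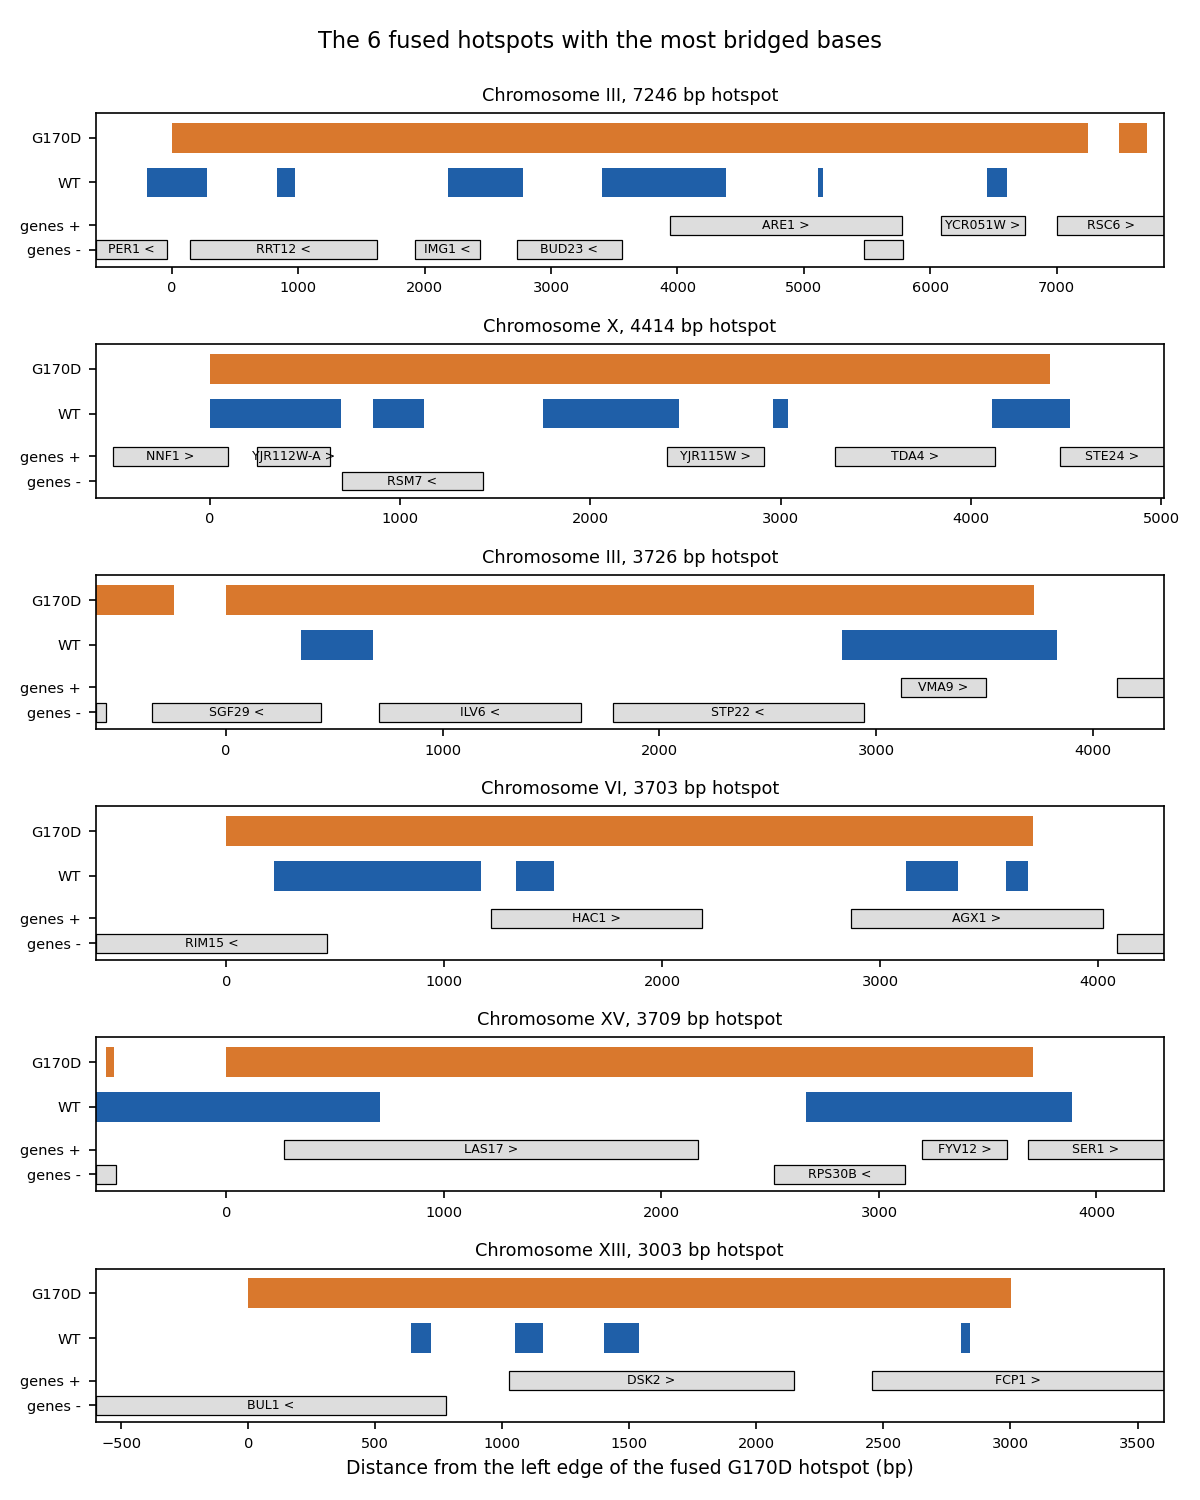
Hotspots of G170D (orange, upper track) and WT (blue, middle track) and coding genes by strand (grey; > and < give the direction) at the 6 fused hotspots with the most bridged bases, against the distance in bp from the left edge of the fused hotspot. In each panel 1 orange interval spans 2 to 6 blue ones, intervals cut by the panel edge continue outside it, and genes drawn too short for a name have none.

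The remaining 6 of the 12 fusions with the most bridged bases had between 1504 and 1825 bp bridged. At UTR4, a methionine salvage gene, and RAD23, a DNA repair gene (chromosome V, 79897 to 82953), a single gap of 1825 bp was closed, and the RAD23 body was covered over 100% in G170D and 19.5% in WT. CAC2, which encodes a subunit of the CAF-1 histone chaperone, was covered over 100% and 27.2% in a fusion (chromosome XIII, 67434 to 71983) that also reached TSL1, a trehalose synthase subunit gene. A second histone chaperone gene, NAP1, was covered over 100% and 29.5% on chromosome XI (523279 to 527417), where 5 WT hotspots were joined, and its neighbour PLN1, a lipid droplet protein gene, over 100% and 29.7%. GLK1, the glucokinase gene, was covered over 100% and 64.7% and GID7, a ubiquitin ligase subunit gene, over 79.2% and 42.0% (chromosome III, 49636 to 54417). At SEC23, SMX3 and DPM1, genes of vesicle coats, splicing and protein glycosylation (chromosome XVI, 898552 to 902056), the SEC23 body was covered over 57.2% in G170D and 15.1% in WT, the SMX3 body over 100% and 11.9% and the DPM1 body over 100% and 37.9%. At TSA1, the main peroxiredoxin gene (chromosome XIII, 219279 to 221391), the body was covered over 100% and 35.7%, and the 500 bp before it over 500 and 0 bp. Of the 8 fusions that joined 4 WT hotspots, the first along the genome were at TVS1 (chromosome III, 224840 to 227485, 768 bp bridged) and at ISC1, a sphingolipid hydrolase gene, with SBH2 and GPA2 (chromosome V, 191376 to 195287, 1286 bp bridged).

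Newly covered bases of fused hotspots touched the body or upstream window of 562 of the 6002 coding genes (9.36%), the body in 459 and the noncoding upstream window in 291. In 129 genes (2.15%) at least 50% of the body was newly covered. Their bodies were short, with a median of 840 bp against 1200 bp for all coding genes, and the median coverage was 100% in G170D and 24.8% in WT. The choice of these genes limits their WT coverage to 50% and is met more easily by short bodies. Of the 129, 100 were covered in full in G170D, 19 had no covered base in WT, and 12 were both. Among all 6002 coding genes, 530 bodies were covered in full in G170D and 503 in WT.

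Among genes with a standard symbol, 9 bodies were newly covered over their full length, and besides ILV6 (930 bp) they were between 111 and 573 bp long. They included EGO2, a TORC1 regulator subunit gene (228 bp), OST4, an oligosaccharyltransferase subunit gene (111 bp), and QCR8, a respiratory complex III subunit gene (285 bp). PTH1, a peptidyl-tRNA hydrolase gene (573 bp), ROQ1 (315 bp), SML1, the ribonucleotide reductase inhibitor gene (315 bp), and TRM112, which encodes a partner of methyltransferases (408 bp), were likewise new from end to end. These 8 bodies lay in bridged gaps, while DDR2, a stress gene (186 bp), was new through an outer flank.

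The largest upstream gains came from different kinds of genes. AGX1 had 500 bp of new upstream DNA and PHO89, a sodium-phosphate cotransporter gene, 462 bp. The 500 bp window of PHO89 was covered over 500 bp in G170D and 38 bp in WT. PHO91, a vacuolar phosphate transporter gene, gained 425 bp and THI2, an activator gene of thiamine synthesis, 430 bp, both through outer flanks and not through a bridged gap. Among ribosomal protein genes RPS0A had 500 bp of its window covered in G170D and 44 bp in WT, and RPS9A 500 and 80 bp. ERG1, the squalene epoxidase gene of sterol synthesis, had 500 and 0 bp, and EGH1, a steryl glucosidase gene, 500 and 127 bp. These windows were chosen for their gain, so the values describe them and support nothing further.

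Gene lists were counted beside the 9.36% of all coding genes touched by newly covered bases of fused hotspots. Since the lists were drawn up with earlier results of these data known, their shares are descriptions. Of 27 general stress genes of Msn2 and Msn4, 8 were touched (29.6%). SOD2, the mitochondrial superoxide dismutase gene, was covered over 97.6% of its body in G170D and 20.8% in WT, while GPD1, of glycerol synthesis, gained 170 bp upstream. Of 14 trehalose and glycogen genes 4 were touched (28.6%), among them TPS1 (50.4% of the body in G170D, 44.3% in WT), TSL1 (69.1% and 70.7%), GLG2, a glycogenin gene (12.9% and 11.1%), and GDB1, the debranching enzyme gene (3.14% and 0.477%). TPS1 and TSL1 were also among the 8 touched general stress genes, so the stress list and the trehalose and glycogen list overlap. Of 9 glucose-repressed genes 4 were touched (44.4%). FBP1 and PCK1, both of gluconeogenesis, had upstream windows covered over 500 bp in G170D each, against 287 and 266 bp in WT. The lactate transporter gene JEN1 had 295 and 123 bp, while ACS1, for acetyl-CoA synthetase, was touched in its body (9.34% in G170D, 9.15% in WT).

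Chaperone genes were touched at a share near the 9.36% of all coding genes. Of 28 Hsf1 targets 2 were touched (7.14%), both genes of J-domain cochaperones of Hsp70. SIS1 was covered over 100% of its body in G170D and 39.5% in WT, and MDJ1, of mitochondria, over 100% and 63.7%. Of 14 genes for Hsp90 and its cochaperones 1 was touched (7.14%): PIH1, of the R2TP complex, had 62.7% of its body covered in G170D and 0% in WT, by an outer flank. HSP82 and HSC82 themselves held 0 newly covered bases of fused hotspots, and the HSP82 body was covered over 100% in both strains.

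Among growth genes the shares lay on both sides of the 9.36%. Of 138 cytosolic ribosomal protein genes 16 were touched (11.6%), 11 of them upstream and 9 in the body. Upstream windows were covered over 500 bp in G170D at RPL25, RPL34A and RPL35A, against 294, 258 and 418 bp in WT, and the body of RPL36B over 100% and 66.4%. Several ribosomal protein genes have a near-identical copy, and the handling of reads shared by such copies is not stated in the labels. Of 34 ribosome assembly factor genes 1 was touched, RLP7 (82.0% of the body in G170D, 65.2% in WT). Among 21 ergosterol genes 5 were touched (23.8%), but ERG20, ERG27 and ERG3 held at most 73 new bp each. FTR1, the iron permease gene, was covered over 100% and 49.7% of its body, and FIT2, a cell wall iron gene, gained 74 bp upstream, the 2 touched of 13 iron regulon genes (15.4%). None of the 7 hexose transporter genes was touched.

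Chromosome III stood apart from the other 15. Of its 120 G170D hotspots 15 were fused (12.5%, 7.72 to 19.6), while the other chromosomes ranged from 4.12% to 6.74%. Of its 166 WT gaps 23 were bridged (13.9%), against 3.69% to 6.39% elsewhere, and 14 of the 129 genes with at least 50% of the body newly covered lay there. Of the 12 fusions with the most bridged bases 3 were on it. Other values of this chromosome moved in the same direction. Its hotspots stood at a median score percentile of 66.1 in the G170D list, against 45.4 to 52.4 on the other chromosomes, and at 47.0 in the WT list, within the 42.2 to 55.5 of the others. Its covered length in G170D was 1.13 times that in WT (96.3 and 85.1 kb), while the ratio was 0.817 to 1.04 on the others. The part of this general shift in the fusions of chromosome III was not tested. The number of copies of the chromosome per cell in either strain was not measured here, and a difference in it cannot be told apart from a difference in accessibility in these lists. Without chromosome III 299 fused hotspots remained of 5868 (5.10%), and 72.5% of their bridged bases were coding.

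**Figure D5:**
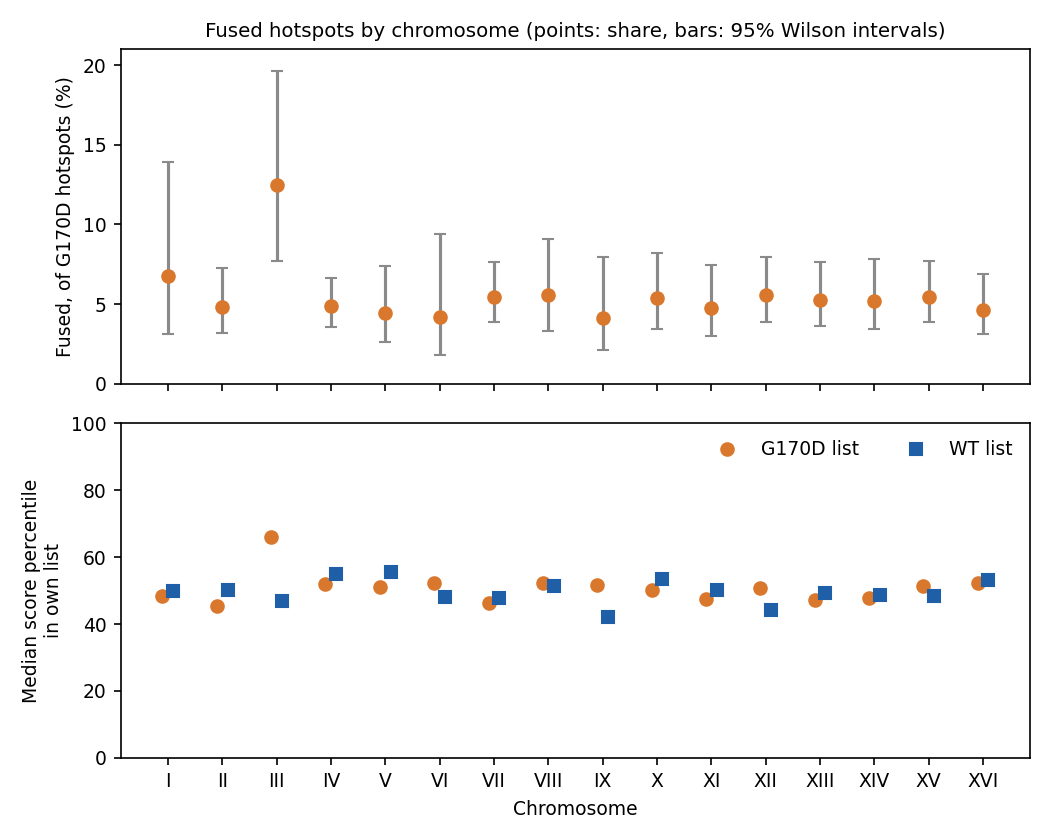
Upper panel: share of G170D hotspots that were fused (vertical, %) by chromosome, with 95% Wilson intervals. Lower panel: median percentile of the score within each strain's own list (orange circles G170D, blue squares WT), where chromosome III stands at 66.1 in G170D and 47.0 in WT.

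The overlap rule itself decided few members. The smallest overlap with a second WT hotspot was 6 bp, at a hotspot of 1097 bp by ATG40, a receptor gene of selective autophagy (chromosome XV, 618742 to 619838), and the next were 16 bp at PDC6, a pyruvate decarboxylase gene (chromosome VII, 650379 to 651891), and 18 bp (chromosome XIII, 698300 to 698724). On the other side, the nearest misses lay 11 bp (chromosome V, 490557 to 491941), 29 bp (chromosome X, 525558 to 527903) and 32 bp (chromosome XI, 18240 to 18766) short of a further WT hotspot. The median overlap with the second WT hotspot was 247.5 bp.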

How the data were processed

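DNase-seq hotspots of 1 G170D and 1 WT library were used, grouped by their source labels. The authors deposited for each library a list of intervals with a score, with a meaning not given in the sources used here. Scores were ranked only within their own list. Bowtie 1.0.0, FastQC 0.10.1 and build sacCer3 appear in the submitters' processing notes, with the caller, its settings and the depth not given in the sources used here.

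A fused hotspot was a G170D interval overlapping 2 or more WT intervals by 1 bp or more. Its newly covered bases were those in no WT hotspot, divided into bridged gaps (between joined WT hotspots) and outer flanks. Bases were placed against 6002 RefSeq coding genes of assembly R64 (sacCer3), with introns counted in the coding body and strand read from the systematic name. An upstream base lay in the 500 bp before a coding start and in no coding body. Coordinates count from 1.

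With 1 library per strain no p-value between strains was made, and 95% Wilson or order-statistic intervals cover counting error only. Named regions and genes followed a fixed rule: the 12 fused hotspots with the most bridged bases, the 5 joining the most WT hotspots (8 tied at 4, and ties went to the earlier position), the 8 genes with most new upstream bases, the 8 with the largest newly covered share of their body, HSP82, HSC82, up to 4 touched genes of each list in alphabetical order, and the 3 cases on either side of the overlap rule. The members and the gene lists were chosen with earlier results of these data known. The code was tested on simulated lists with planted fusions. Alternatives covered score, overlap, joining of near neighbours, leaving out rDNA and chromosome ends, the definition of a fused hotspot, the upstream window and the priority of coding over upstream. No sequence is printed, and planned motif searches were not run. Scripts ran in Python 3.11.15 with pandas 2.3.3, numpy 2.4.6, scipy 1.17.1 and matplotlib 3.10.9.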

Additional observations from a re-analysis of the deposited data

How the results depend on the processing

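Of 68 recomputed values, 53 stayed within the interval of the main value or within 1.5 times of it. For the coding and upstream shares that interval took the 380 bridged gaps as its count, although these are shares of bases. It served as a yardstick only and does not measure their spread. The 1.5 times rule held for the counts of hotspots and genes and for the newly covered length. By this rule 214 fused hotspots against 314 stayed within the limit. Some of the 53 could not change. These were all values with merging at 50 bp, and the coding share with upstream windows of 250 and 1000 bp. With the higher-scoring 50% of each list there were 130 fused hotspots, 94.2 kb newly covered, a median gap of 284 bp and 74 genes with at least 50% of the body newly covered. Requiring 3 or more WT hotspots gave 51, 64.8 kb, 293 bp and 50 genes. Merging neighbours up to 300 bp apart in both lists, an alternative chosen after seeing the data, gave a median gap of 516 bp, 78.1% coding and 14.0% upstream, with 214 fused hotspots. An upstream window of 250 bp put 10.5% of bridged bases upstream and one of 1000 bp put 22.5% there. Counting bases in both kinds of place as upstream gave 61.9% coding and 29.2% upstream. Merging at 50 bp changed nothing, since no gap was that short. Leaving out chromosome III was also chosen later. With equal list lengths 251 fused hotspots were left. The cause of these changes was not tested beyond what each setting removes. No paired analysis was possible because each strain has 1 library. Depth is unknown, so whether a gap in WT was detectable as accessible cannot be said.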

Other observations

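Newly covered bases of fused hotspots reached a few genes for small RNAs. Of 275 nuclear transfer RNA genes 7 held such bases (2.55%), 5 of them in a bridged gap, and 2 were newly covered in full. Among the 76 snoRNA genes, whose products direct chemical changes of rRNA, 3 held them (3.95%), and these were SNR41, SNR46 and SNR85, named after their values were seen. Near chromosome ends fusion was less frequent in these lists, with 6 of 263 G170D hotspots within 30 kb of an end (2.28%, Wilson 1.05 to 4.89) and 308 of 5725 elsewhere (5.38%, 4.82 to 5.99).

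The share of bridged bases varied with the distance from coding starts. In 50 bp steps over all coding genes, 1.04% of bases centred 75 bp upstream of the start were bridged, against 2.35% centred 625 bp upstream and 2.30% centred 225 bp downstream. Farther downstream the share was as low again, at 0.972% centred 1475 bp from the start, the lowest of the profile. Distances ran on past the ends of genes, and the median coding body was 1200 bp. Coverage centred 175 bp upstream was highest in both strains, at 59.8% in G170D and 65.2% in WT, and bases covered in WT cannot be bridged.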
